A study of Danio rerio with 6 samples.

Results

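A set of 9 miRNAs known for their place in the skin and other epithelia of vertebrate embryos were followed in whole zebrafish embryos raised with or without ethanol. The members were dre-miR-203a, dre-miR-203b, dre-miR-203b*, dre-miR-205, dre-miR-200a, dre-miR-200b, dre-miR-200c, dre-miR-141 and dre-miR-429, each measured by 1 probe. The probes were chosen by the miRNA name printed for them in the scanner files and are 9 of the 243 zebrafish probes on the array. The control embryos grew in system water, and the others in 1% or 1.5% ethanol diluted in system water, from 4 h after fertilisation, when the embryo is a blastula. All were collected at 24 h. The study's description gives 24 h as the end of the exposure and also mentions a return to plain water before collection, so it is not settled whether exposure was continuous. Each of the 3 groups had 2 biological replicates, given 1 one-colour Cy3 array each. Embryos were kept together in dishes, so each array reports a pool of whole embryos, and the labels name no strain. In such pools, fewer epidermal cells and less miRNA per cell cannot be told apart.

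A miRNA is a short RNA that pairs through a short seed with messenger RNAs and lowers their output. In mouse skin, miR-203 is made as epidermal cells leave the stem cell layer and represses p63, a transcription factor of epithelial progenitors. miR-205 is abundant in basal cells of stratified epithelia of mammals. The miR-200 family, which holds miR-200a, miR-200b, miR-200c, miR-141 and miR-429, targets the repressors ZEB1 and ZEB2 and thereby helps keep E-cadherin and an epithelial state. In zebrafish the family is known in sensory epithelia and in ionocytes, the ion-transporting cells of the skin. In the RefSeq gene table of zebrafish assembly GRCz12tu, mir200a, mir200b and dre-mir-429 neighbour each other. The genes mir200c, mir141 and mir429b form another such group, while mir203a, mir203b and dre-mir-205 have no member of these families near them.

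The dre-miR-203a probe also carries the names of 5 miRNAs of other species, dre-miR-205 carries 15, dre-miR-200a 8, dre-miR-429 7 and dre-miR-200b 3, and the other members carry only the zebrafish name. Close relatives can bind such probes, and whether dre-miR-203b adds to the dre-miR-203a signal was not tested.

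The array gave a clear signal for 1 of these miRNAs. The dre-miR-203a probe gave spots of 9129 to 26639 intensity units wherever the spot was fully formed, in all 3 groups. The other 8 probes lay close to the spots that carry no probe, which limits what the data say about their miRNAs at 24 h. No member passed the test between any 2 groups, where 0.412% of all zebrafish probes passed for 1% ethanol against control and 0% for each other comparison. The lower average of dre-miR-203a at 1% ethanol rested on a pair of small spots on 1 array.

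Each probe was printed in 4 spots per array, 2 in the upper part of the print and 2 in the lower. The level of signal to be expected without a probe came from the empty and blank spots, whose median was 98 to 129 units and whose 95th percentile was 255.7 to 451.8 units, depending on the array. A probe counted as above them where no more of its kept spots fell short of the array's 95th percentile than exceeded it. In each group this limit was higher on replicate 1 than on replicate 2. Whether a probe was above on an array thus depended on the limit as well as on its signal. Kept spots are those without the quantification software's ignore mark, which 4.64% to 11.7% of the spots of an array carried. By this measure 28 of the 243 zebrafish probes (11.5%) were above on all 6 arrays, and 1 of the 9 members (11.1%). Above on no array were 7 members (77.8%), beside 159 of all zebrafish probes (65.4%).

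On the control arrays the dre-miR-203a spots of the upper print read 26639 and 26630 units in replicate 1 and 11917 and 10861 in replicate 2. At 1% ethanol they read 14347 and 14111 in replicate 1 and 14411 and 14288 in replicate 2. At 1.5% ethanol they read 19062 and 16871, and 18806 and 18695. The control arrays thus held both the highest and the lowest of these raw values, and both ethanol groups lay inside the range of the controls. Control replicate 1 was also the brightest array, with a median zebrafish spot of 226 units against 166 to 185 on the others. After the normalisation described below, these upper spots stood at 14.49 in 1.5% ethanol replicate 2, above the controls at 14.43 and 13.46. Neighbouring prints of the probe agreed closely: the pair differed by 0.034% to 13.0% of the lower value, depending on the array.

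The lower print of the same probe was uneven. It gave 661 and 536 units in control replicate 1, both with the ignore mark, and 9129 and 9480 in control replicate 2. At 1% ethanol it gave 14961 and an ignored 417 in replicate 1, and 303 and 389 in replicate 2, where neither spot had the mark. At 1.5% ethanol it gave 10189 and an ignored 504 in replicate 1, and 17133 and 16874 in replicate 2. Of the 24 spots, 6 were therefore far below the others, all 6 among the 12 lower ones. They covered 1 to 46 pixels, against 122 to 174 pixels for the other 18, which are called full-size here (66.4 pixels or more, set from the nominal spot diameter of 130 µm). The 4 with the mark were left out of the averages, and the 2 on 1% ethanol replicate 2 were not.

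**Figure D1:**
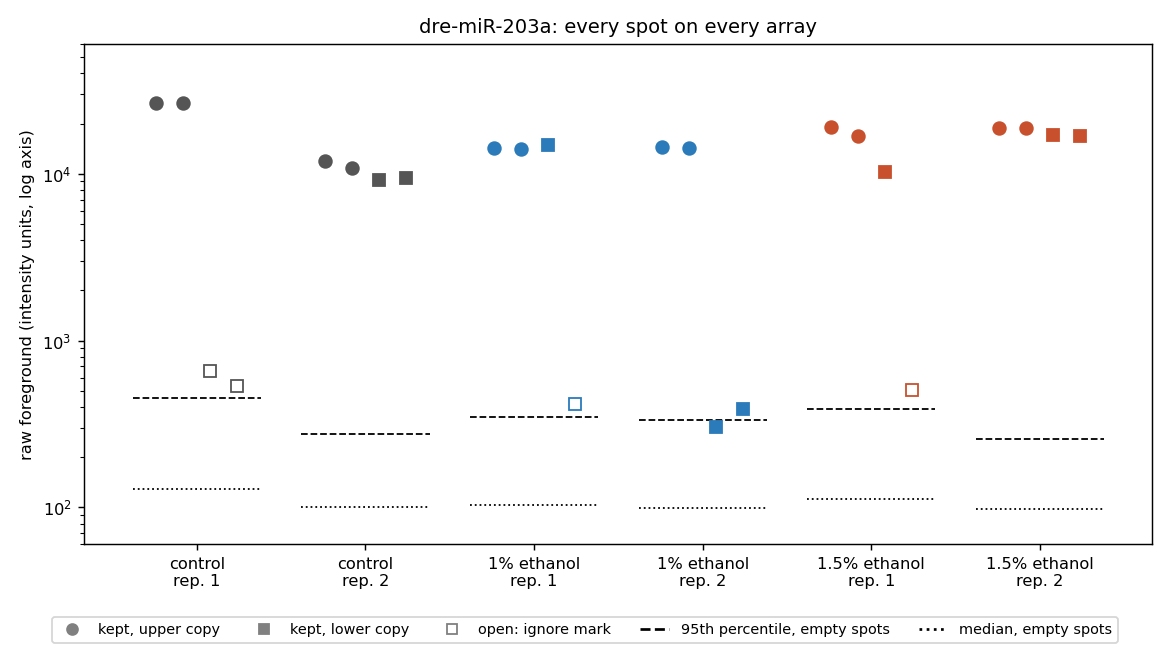
Raw foreground of each dre-miR-203a spot on a log axis, by array, for the upper print (circles) and the lower print (squares), with open symbols for ignored spots and lines at the median and 95th percentile of the empty spots. The 18 full-size spots lie between 9129 and 26639 units and the 6 small ones between 303 and 661, where 2 of 1% ethanol replicate 2 are filled because they were kept.

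Other bright probes in the same print blocks lost signal in the lower print as well. Counted were their full-size upper spots of at least 2000 units. The lower twin was under 0.25 of the upper spot for 9 of 14 spots in control replicate 1 and 2 of 9 in control replicate 2. These are counts of spots, and a probe can give more than 1. At 1% ethanol the counts were 3 of 12 and 5 of 13, and at 1.5% ethanol 7 of 14 and 3 of 11. Such weak twins occurred in every group. On 1% ethanol replicate 2, 1 of them also had no ignore mark, and on 1.5% ethanol replicate 1 there were 2.

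After background correction and quantile normalisation, with all kept spots averaged, dre-miR-203a stood at log2 levels of 14.43 and 13.38 in controls. The levels were 13.81 and 11.05 at 1% ethanol, then 14.03 and 14.22 at 1.5% ethanol. The group means were 13.91 ± 0.74, 12.43 ± 1.95 and 14.12 ± 0.13 (SD, n = 2 each) in that order. The array of 1% ethanol replicate 2 stood below the other 5. With full-size spots alone, a choice made after seeing the data, the levels at 1% ethanol were 13.81 and 13.89, with a mean of 13.85 ± 0.05, and those of the other groups did not move. With the upper print alone, another such choice, the means were 13.95 ± 0.69 in controls, 13.84 ± 0.07 at 1% and 14.39 ± 0.15 at 1.5% ethanol. Under both choices the controls spanned the 1% ethanol arrays. The order of the group means was 1% ethanol, control, 1.5% ethanol under all 3, and the gap between neighbours in that order was smaller than the SD of the controls once the small spots were out.

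**Figure D2:**
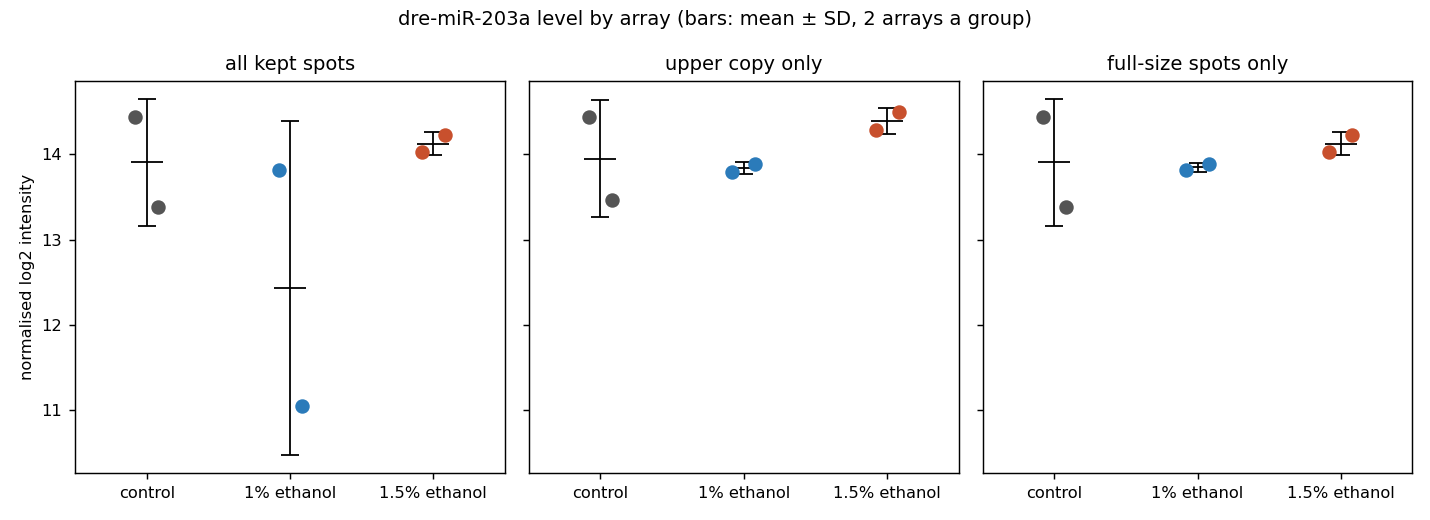
Normalised log2 level of dre-miR-203a on each array (points) with the group mean and its SD (bars, n = 2 each), from all kept spots, from the upper print and from full-size spots. The array of 1% ethanol replicate 2 is at 11.05 with all kept spots and at 13.89 with either of the others.

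The test between groups was limma's moderated linear model over all 6 arrays, adjusted by Benjamini-Hochberg over the 243 zebrafish probes with a threshold of 0.05. Its fold changes are given as the group named first over the group named second.

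Between 1% ethanol and control, dre-miR-203a had a log2 fold change of -1.47 with a standard error of 0.86, a 95% interval of -3.56 to 0.61 and a limma adjusted p of 0.88, so the difference did not pass the test. With full-size spots the log2 fold change was -0.06, with an interval of -0.96 to 0.84 and a limma adjusted p of 0.95. With the upper print it was -0.11, with an interval of -0.96 to 0.75. The interval from full-size spots still holds falls and rises close to 1 log2 unit, so smaller differences were not detectable at this precision. Leaving out 1% ethanol replicate 2 gave -0.09, and leaving out 1% ethanol replicate 1 gave -2.86.

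Between 1.5% ethanol and control, the log2 fold change of dre-miR-203a was 0.22, with an interval of -1.86 to 2.30 and a limma adjusted p of 0.97. Full-size spots gave the same 0.22 with a narrower interval of -0.68 to 1.12, and the upper print gave 0.44 with an interval of -0.41 to 1.30. The 1.5% ethanol arrays lay between the control arrays with all kept spots and with full-size spots, and 1 of them lay above both controls with the upper print. The sign rested on the controls: the log2 fold change was -0.31 without control replicate 2 and 0.74 without control replicate 1, and it was -0.0249 without normalisation.

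Between 1.5% and 1% ethanol, both 1.5% arrays lay above both 1% arrays, at log2 levels of 14.03 and 14.22 against 13.81 and 11.05, as for 15.2% of all zebrafish probes. The log2 fold change was 1.69 with an interval of -0.39 to 3.78 and a limma adjusted p of 0.71. It was 0.55 (-0.31 to 1.41) with the upper print and 0.28 (-0.62 to 1.17) with full-size spots. The arrays of these groups did not overlap under either choice, but the share of all zebrafish probes was counted only with all kept spots. The size of the dre-miR-203a difference thus depended on the 2 small spots, and it did not pass the test with or without them. Leaving out 1% ethanol replicate 2 gave 0.31, and leaving out 1% ethanol replicate 1 gave 3.08. In the authors' deposited table, on a log2 scale relative to the Ncode_Control spots, dre-miR-203a stood at 6.39 and 7.13 at 1.5% ethanol, against 6.55 and 3.95 at 1% ethanol, and at 7.04 and 5.71 in controls.

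The arrays appear to have been paired on 3 slides, as read from their positions and experiment names in the file headers. Slide 1 held 1% ethanol replicate 1 and control replicate 1, slide 2 held 1.5% ethanol replicate 1 and control replicate 2, and slide 3 held 1.5% and 1% ethanol replicate 2. Within slides, the log2 level of dre-miR-203a differed by -0.62 on slide 1, by 0.65 on slide 2 and by 3.17 on slide 3, always with the group named first minus the other. With the slide as a block, which leaves 1 residual degree of freedom, 1.5% ethanol against 1% ethanol gave 2.54 (1.59 to 3.48) and a limma adjusted p of 0.027, the only call of a member in the fits that were run. The call ended when the small spots were out: the same block gave 0.65 with a limma adjusted p of 0.96 from full-size spots and 0.89 with a limma adjusted p of 0.99 from the upper print. Against control, the slide block with all kept spots gave -1.25 (-2.19 to -0.31) for 1% and 1.28 (0.34 to 2.225) for 1.5% ethanol. The limma adjusted p was 0.53 and 0.61, so neither passed the test. From full-size spots these log2 fold changes were -0.31 and 0.34.

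**Figure D3:**
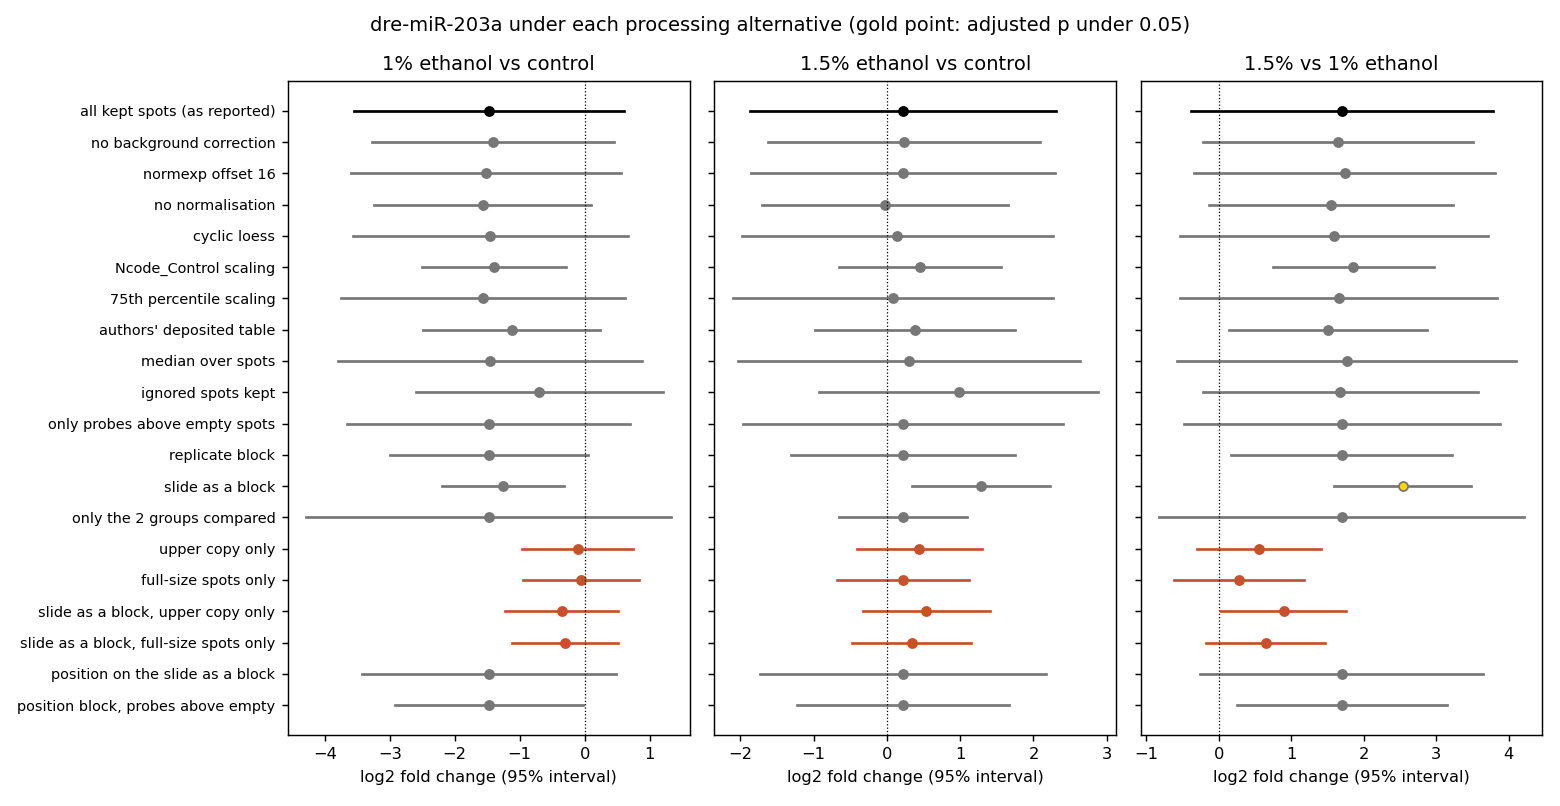
Log2 fold change of dre-miR-203a with its 95% interval for each comparison under each way of processing, with settings that use the upper print or full-size spots in orange. All settings but 1 have an adjusted p over 0.05. The exception, the slide as a block in 1.5% against 1% ethanol (gold point), is at 2.54, beside 0.65 from full-size spots in the same block.

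The other 8 probes had 192 printed spots on the 6 arrays, of which 176 were kept. Of those, 13 (7.39%) exceeded the 95th percentile of their array's empty spots, 4 were full-size, and 116 (65.9%) covered a single pixel. Empty spots covered a single pixel in 86.4% to 94.4% of cases, depending on the array, and zebrafish spots as a whole in 43.7% to 59.4%. Most spots of these 8 probes thus had the size of empty spots. In no group were both arrays above the empty spots for any of these 8, so their values are given in raw intensity units and without fold changes.

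Of the miR-203 relatives, dre-miR-203b is the product of another gene, and dre-miR-203b* is the opposite strand of its hairpin, a strand that is usually degraded. The median of the kept dre-miR-203b spots was 277.5 units in controls, 218.5 at 1% and 138.5 at 1.5% ethanol, within ranges of 111 to 482, 107 to 373 and 108 to 798. These medians pool 2 arrays that differed. By array, the dre-miR-203b median was 367 and 145 units in controls, 203.5 and 218.5 at 1% ethanol, and 167.5 and 127 at 1.5% ethanol. Control replicate 1 also had the brightest empty spots, with a median of 129 units. The ranges overlapped widely, and 3 of the 22 kept dre-miR-203b spots passed the limit of the empty spots. The dre-miR-203b* spots had medians of 153, 114 and 114 units in the same order of groups, and 1 of 22 passed that limit. Its control arrays again differed, with medians of 308.5 units in replicate 1 and 105.5 in replicate 2.

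The dre-miR-205 probe gave weak spots, whose agreement differed between arrays. Its kept spots in controls were 376, 194 and 241 units in replicate 1 and 170, 173 and 151 in replicate 2. At 1% ethanol they were 161, 161 and 221, then 161, 175 and 165, and at 1.5% ethanol 166, 173 and 204, then 190, 155 and 947. Apart from that 947, a spot of 2 pixels, the kept spots of dre-miR-205 were at or under 376 units. All 18 kept spots lay over the median of the empty spots of their array, but 1 lay over the 95th percentile. The fourth of its spots was lost to the ignore mark or to a foreground of 0 on all 6 arrays.

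In the miR-200a, miR-200b and miR-429 gene group, dre-miR-200a spots read 155 to 592 units and all 23 kept ones lay over the empty median, 3 of them over the 95th percentile. Its array medians were 183 and 189.5 units in controls, 209.5 and 237 at 1% ethanol, and 173 and 177.5 at 1.5% ethanol. The dre-miR-429 spots read 118 to 521 units, and on 1% ethanol replicate 2, with spots of 124, 521, 149 and 453, the probe was above the empty spots on that array alone. The 2 high spots there covered 1 and 2 pixels, far from full size.

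The dre-miR-200b probe had the most uneven spots among the members. In controls it gave 184, 126, 370 and 118 units in replicate 1 and 89, 105, 287 and 111 in replicate 2. At 1% ethanol it gave 89, 125, 278 and 91, then 260, 94, 104 and 324. At 1.5% ethanol the spots were 125, 96, 103 and 115, then 91, 94, 88 and 90. Each array of the controls and of 1% ethanol thus had 1 or 2 spots far above the rest, and neither array of 1.5% ethanol had any. Those high spots covered 1 to 3 pixels each. On both 1.5% ethanol arrays the median spot was under the empty median. This probe had the lowest limma adjusted p of the dim members for 1.5% ethanol against control (0.90) and against 1% ethanol (0.49), and neither passed the test.

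In the miR-200c and miR-141 gene group, dre-miR-200c had array medians of 170.5 and 189.5 units in controls, 114 and 119 at 1% ethanol, and 325 and 123 at 1.5% ethanol. Its 1.5% ethanol replicate 1 spots, at 879, 337, 117 and 313, held the 2 full-size spots of this probe. The dre-miR-141 probe was the closest of all to the empty spots: its 24 spots read 84 to 159 units, each a single pixel, with 8 over the empty median and none over the 95th percentile.

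**Figure D4:**
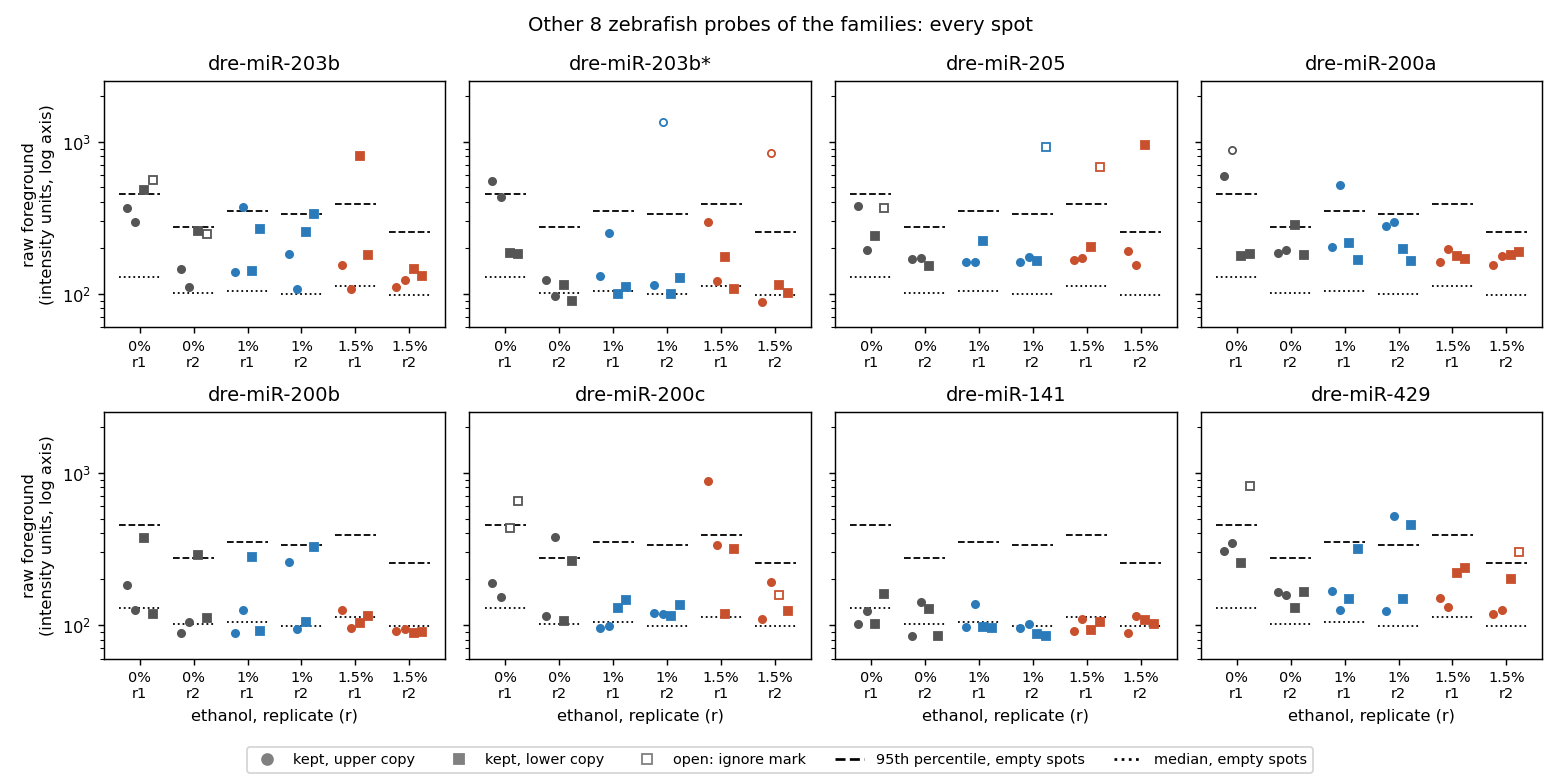
Raw foreground of each spot of the other 8 zebrafish probes on a log axis, by array in dose order, with open symbols for ignored spots and lines at the median and 95th percentile of the empty spots. Most spots lie between the lines, and the highest kept one, at 947 units, belongs to dre-miR-205 at 1.5% ethanol.

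The 4 spots of a probe should repeat each other. The SD of log2 raw foreground over the kept spots of a probe, as its median over the 6 arrays, was 0.13 for dre-miR-203a, the lowest of the members, and 0.76 for dre-miR-200b, the highest. This order rests on leaving out the ignored spots: with them, dre-miR-203a had the highest median SD of the members, at 2.52, and dre-miR-200b stayed at 0.76. The median of the members was 0.36, beside 0.25 for all zebrafish probes, whose middle range ran from 0.13 to 0.41. On 1% ethanol replicate 2 alone, dre-miR-203a had an SD of 3.11, from the 2 small spots.

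Over the 9 members, limma called 0 in each of the 3 comparisons, where 0.412% of the zebrafish probes (1 of 243) were called for 1% ethanol against control and 0% for each of the other comparisons. The limma adjusted p of the members was 0.88 to 0.99 for 1% ethanol against control, 0.90 to 0.97 for 1.5% ethanol against control, and 0.49 to 0.98 for 1.5% against 1% ethanol. At an unadjusted p under 0.05 the counts of members were 0, 1 and 1, the 1 being dre-miR-200b each time, beside 15, 13 and 18 of all zebrafish probes. The median log2 fold change of the 9 was -0.03, -0.18 and -0.03 in these comparisons, beside 0.00, 0.01 and -0.04 for all 243. The smallest two-sided p that an exact permutation test of 2 against 2 arrays allows is 0.333, and therefore only the model was used.

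For 1% ethanol against control, 0 of 9 members lay wholly higher (20.6% of all zebrafish probes did) and 0 wholly lower (16.9%). For 1.5% ethanol against control, 0 lay wholly higher (11.5%) and 2, dre-miR-200a and dre-miR-200b, wholly lower (16.9%). For 1.5% against 1% ethanol, 2 lay wholly higher, dre-miR-203a and dre-miR-200c (15.2%), and 3 wholly lower, dre-miR-200a, dre-miR-200b and dre-miR-429 (16.9%). These counts use normalised levels, and the members named other than dre-miR-203a lay close to the empty spots.

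The print also carried 8 probes of these families named only for other species, which bear on the same miRNAs as far as their sequences are shared. Whether they are was not checked, as no probe sequence was used here. Only 3 of the 8 were above the empty spots on any array: mmu-miR-200b, mmu-miR-203 and mmu-miR-141. The probe named mmu-miR-200b was above the empty spots on all 6 arrays, as were 13.2% of the 835 probes of other species, and 23 of its 24 spots were full-size. It read 692 to 799 and 407 to 481 units in controls, 672 to 767 and 515 to 616 at 1% ethanol, and 603 to 721 and 539 to 609 at 1.5% ethanol. Its normalised log2 level was 9.08 ± 0.16 in controls, 9.29 ± 0.22 at 1% and 9.29 ± 0.11 at 1.5% ethanol (SD, n = 2 each). The log2 fold changes were 0.21 for 1% ethanol against control, 0.21 for 1.5% ethanol against control and 0.01 for 1.5% against 1% ethanol, with limma adjusted p of 0.96, 0.97 and 0.99 over all 1078 miRNA probes.

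The probe named mmu-miR-203 was above the empty spots on 4 arrays, both controls and replicate 2 of each ethanol group. It read 487 to 509 and 348 to 400 units in controls, 314 to 346 and 397 to 424 at 1% ethanol, and 320 to 327 and 448 to 474 at 1.5% ethanol. Unlike those of dre-miR-203a on 4 arrays, its upper and lower prints gave like values on every array. Its log2 fold changes were -0.10 for 1% ethanol against control (interval -0.80 to 0.61) and -0.07 for 1.5% ethanol against control (interval -0.77 to 0.64). Another probe named for miR-203, hsa-miR-203, was above on no array, and its 23 kept spots read 118 to 279 units. The kept spots of both probes lay far below the full-size dre-miR-203a spots of 9129 to 26639 units. The probe named mmu-miR-141 was above on 3 arrays, replicate 2 of each group, where the limit of the empty spots was lower. Its medians on replicates 1 and 2 were 404.5 and 321.5 units in controls, 285 and 349 at 1%, and 362 and 360.5 at 1.5% ethanol. Its kept spots read between 284 and 590 units. Its log2 fold changes against control were -0.05 for 1% and 0.09 for 1.5% ethanol. Neither mmu-miR-203 nor mmu-miR-141 passed the test. Of all 8 such probes, 0 were called by limma in any comparison, where 0.186%, 0% and 0.0928% of all miRNA probes were called for 1% ethanol against control, 1.5% ethanol against control and 1.5% against 1% ethanol. At an unadjusted p under 0.05 the counts were 0, 1 and 1, beside 53, 45 and 52 of all 1078 miRNA probes. The 1 was hsa-miR-200a* both times, a probe above the empty spots on no array.

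**Figure D5:**
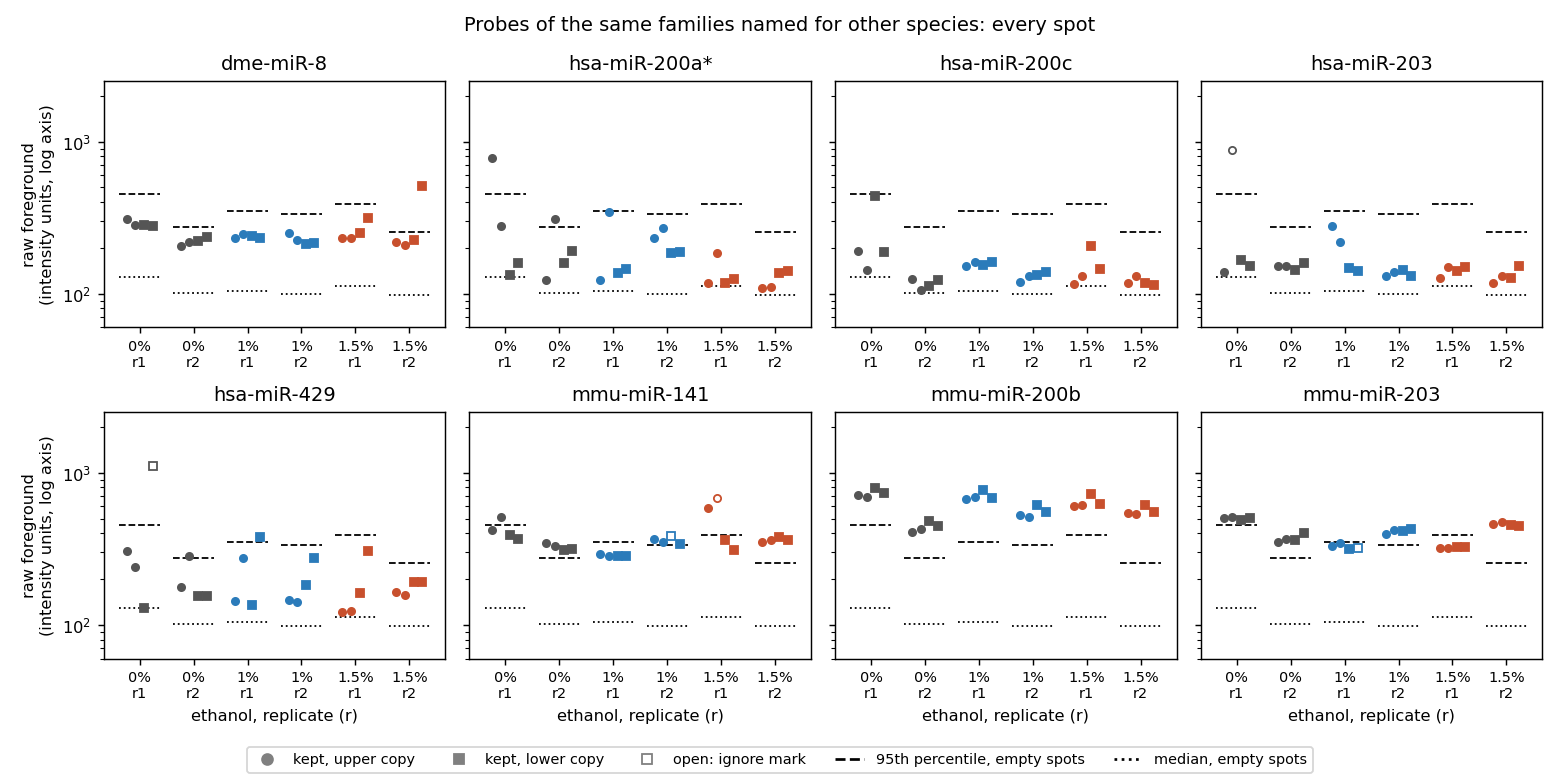
Raw foreground of each spot of the 8 probes of the same families named for other species, on a log axis by array, with the lines of the empty spots. The mmu-miR-200b spots lie at 407 to 799 units, above the 95th percentile on all 6 arrays, with the 4 spots of an array close together.

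A list of other miRNAs of epithelia and sensory organs had 8 of its 14 names on the array. These were miR-96, miR-182 and miR-183, known from hair cells, miR-184, miR-192, miR-194a, miR-194b and miR-31. Of the 8, 0 were above the empty spots on all arrays and 4 on at least 1. Among all zebrafish probes these shares were 11.5% and 34.6%. The median log2 fold change was 0.00 for 1% ethanol against control, 0.09 for 1.5% ethanol against control and 0.01 for 1.5% against 1% ethanol. In the same order it was 0.00, 0.01 and -0.04 for all zebrafish probes. limma called 0 of 8 in each comparison, beside 0.412%, 0% and 0% of all zebrafish probes. Counts at an unadjusted p under 0.05 were 0, 1 and 1, beside 15, 13 and 18 of all 243. The 2 with the highest levels were dre-miR-96, above the empty spots on replicate 2 of both ethanol groups and on no control, and dre-miR-192, above on 1.5% ethanol replicate 2 and on both controls. Each had a limma adjusted p of 0.88 for 1% and 0.97 for 1.5% ethanol against control.

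As a check that the arrays held embryo RNA, 12 markers of other tissues were read. The neural dre-miR-9 and dre-miR-132, the muscle dre-miR-1 and the early embryo dre-miR-430b were above the empty spots on all 6 arrays. Of all zebrafish probes, 11.5% were above on all 6. The neural dre-miR-124, the muscle dre-miR-133a and dre-miR-430a were above on 1 array each. The liver dre-miR-122, the endothelial dre-miR-126, the muscle dre-miR-206 and dre-miR-430c were above on none. Markers of the same tissue were thus not detected alike. In this list 1 of 12, the neural dre-miR-128, was lower at 1% ethanol, with a log2 level of 6.93 ± 0.12, than in controls, with 8.85 ± 0.09 (SD, n = 2 each, limma adjusted p 0.015). It was above the empty spots on neither 1% ethanol array and on both controls. The call was absent under 9 of 25 alternatives: without normalisation, with the authors' table, with the median over spots, with full-size spots, with the slide as a block with or without full-size spots, and without control replicate 1, control replicate 2 or 1% ethanol replicate 1. For 1% ethanol against control, dre-miR-128 was the only call among all 243 zebrafish probes (0.412%). In the other comparisons 0 of 12 were called, beside 0% of all zebrafish probes.

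Among the 27 other zebrafish probes above the empty spots on all 6 arrays, the level of dre-miR-23a had the pattern most like that of dre-miR-203a, with a Pearson r of 0.93 over 6 arrays, followed by dre-miR-430b at 0.77 and dre-miR-16c at 0.60. With the upper print alone, the 3 were dre-miR-18a at 0.73, dre-miR-726 at 0.64 and dre-miR-16c at 0.52, and dre-miR-23a had 0.40. The likeness is thus a description of these arrays that depended on which spots were averaged, and all points share the normalisation.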

How the data were processed

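MicroRNA arrays of 6 pools of zebrafish embryos were grouped by their titles. The deposited scanner files hold raw foreground and local background intensity per spot in 1 channel, not background subtracted, per the file headers. The deposited log2 value table was rebuilt from the scanner files as spot means over the Ncode_Control spots. Ignored spots and spots under a low intensity floor were left out. Of 1440 values, 1438 agreed within 0.001, and 18 were missing. Among the missing was dre-miR-200b at 1.5% ethanol replicate 2, whose spots read 88 to 94 units. The floor thus limits the deposited values of dim probes. The deposited table served as an alternative. Other per-spot columns used, also deposited by the authors, were the spot area and the ignore mark.

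Intensities were corrected with normexp (offset 50), set to log2, quantile normalised over 4312 miRNA spots without ignored spots, and averaged per probe. R 4.3.3 and limma 3.58.1 were used. The limma fit left 3 residual degrees of freedom, to which moderation added 3.16, and its median standard error was 0.20 log2 units; the number of arrays limits the precision. It was tested on simulated data. The labels call the replicates biological but name no animals, so p-values measure the spread between these samples. Members and lists were chosen with earlier results of these data known. Named were all members, the 2 highest probes of the epithelial list, the tissue markers, with dre-miR-128 named as the called one after its values were seen, the 3 probes most like dre-miR-203a and 3 same-family probes of other species. Also named, after their values were seen, were hsa-miR-203 and hsa-miR-200a*. Alternatives changed background, normalisation, spots, blocks and arrays. Deviations of same-numbered replicates had an r of -0.03 for control with 1% ethanol, 0.27 for control with 1.5% ethanol and -0.03 for 1% with 1.5% ethanol. Pairing was left out of the main fit, and the replicate block was run as an alternative. No sequence was printed.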

Additional observations from a re-analysis of the deposited data

How the results depend on the processing

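The count of members called stayed at 0 under 25 alternatives in each comparison, except 1 member (dre-miR-203a, log2 fold change 2.54) for 1.5% against 1% ethanol with the slide as a block. The log2 fold change of dre-miR-203a for 1.5% ethanol against control turned to -0.0249 without normalisation and to -0.31 without control replicate 2. It was 0.98 with ignored spots kept and at most 1.28, with the slide as a block. Leaving out each array gave -2.86 (without 1% ethanol replicate 1) to -0.09 (without 1% ethanol replicate 2) for 1% ethanol against control, -0.31 to 0.74 for 1.5% ethanol against control, and 0.31 (without 1% ethanol replicate 2) to 3.08 (without 1% ethanol replicate 1) for 1.5% against 1% ethanol. A lone array is assumed to vary like the other groups. With the replicate number as a block the values were -1.47, 0.22 and 1.69, with limma adjusted p of 0.75, 0.97 and 0.54, and the count of members called was 0. The lowest adjusted p of the other 8 members ranged over alternatives from 0.74 to 1.00, 0.55 to 1.00 and 0.38 to 0.99 in the same order. The count of members above the empty spots on all arrays stayed at 1 under 4 alternatives. The median spot SD of the members was 0.65 with ignored spots kept and 0.38 after normexp.

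Calls among all zebrafish probes for 1% ethanol against control, 1 as reported, were 0 without normalisation, with the authors' table, with the median over spots, with full-size spots and with the slide as a block, with or without full-size spots. They were 2 with the upper print, with or without the slide block, 3 with Ncode_Control scaling, 4 with slide position as a block over probes above the empty spots, and 0 to 3 without 1 array. For 1.5% ethanol against control, 0 as reported, they were 1 with the authors' table. For 1.5% against 1% ethanol, 0 as reported, they were 4 with Ncode_Control scaling, 3 with the authors' table, 2 with the slide as a block, with or without the upper print, 2 with slide position as a block over probes above the empty spots, and 0 to 3 without 1 array. The cause was not tested. Upper print, full-size spots, slide position and their combinations were chosen after seeing the data. Of 216 group levels of members recomputed, 59 moved by more than 1 SD. Signal over background limits the 8 dim members: 7 were above the 95th percentile of the empty spots on no array and dre-miR-429 on 1.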
